A study of Mus musculus with 7 samples.

Results

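Vascular leptomeningeal cells (VLMCs), the fibroblasts of the inner meninges and of the sheaths around vessels that enter the brain, made up 1635 of 51115 nuclei from the posterolateral cortical amygdala (plCoA) of mice. The plCoA is an olfactory cortical area at the ventral surface of the brain, and its anterior (aplCoA) and posterior (pplCoA) domains were dissected separately from male wild-type C57BL/6J mice 8 weeks old. Mice were kept without sensory stimulation before they were killed in the dark phase, received no other treatment, and were pooled, so each of the 3 replicates of a domain is a pool of animals and not an individual. Nuclei were released from frozen tissue, sorted on a DNA dye and sequenced from the 3′ end of their RNA in 7 libraries, 2 of them from aplCoA replicate 1. The number of replicates sets the precision of every comparison between domains, and an exact permutation test of 3 against 3 cannot give a p below 0.1.

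A nucleus was a barcode with at least 1000 genes and at most 30000 unique molecular identifiers (UMIs). A VLMC nucleus held at least 3 UMIs of Slc6a13, Col1a2 and Col1a1 combined, more of these than of Slc47a1, at most 1 UMI of Slc47a1, and at most 1 UMI of the neuronal genes Slc17a7, Slc17a6, Gad1 and Gad2 together. Slc6a13 encodes a transporter of GABA and taurine, Col1a1 and Col1a2 encode the chains of type I collagen, and Slc47a1 encodes a drug and toxin extrusion transporter of the arachnoid barrier. Since these counts chose the nuclei, their levels and every other level of VLMCs against other classes are given as a description and carry no test. Arachnoid barrier cells (ABCs), the epithelium-like layer that seals the cerebrospinal fluid space from the dura, were taken as nuclei with at least 2 UMIs of Slc47a1 under the same limit on neuronal genes, and numbered 892.

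The leptomeninges are the arachnoid and the pia, and their fibroblasts lay down collagen and basement membrane, carry solutes between cerebrospinal fluid, blood and brain, and secrete retinoic acid, BMPs and other factors that act on the cortex beneath. The arachnoid barrier lies on the outer side of the same tissue and is joined by tight junctions. VLMCs also follow penetrating vessels, so a dissected block of cortex holds them at its surface and in its depth.

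Library totals ranged from 50812605 to 129624583 UMIs, and the summed VLMC counts of a replicate from 513780 to 2229624. Between 5 and 36 nuclear barcodes were shared by any of the 21 pairs of libraries. One replicate stood apart: in aplCoA replicate 1 the droplets with under 100 UMIs held 132.2 counts-per-million (CPM) of Col1a1 and 140.2 CPM of Col1a2, against at most 17.7 and 31.1 elsewhere. Its VLMC nuclei, for which collagen was among the selecting genes, held 82.7 CPM of Col1a1 beside 69.6 to 101 CPM in the other replicates. Of them, 0.533% held collagen and no Slc6a13. Over all replicates, 1334 of 1635 VLMC nuclei held at least 3 Slc6a13 UMIs, and the rest needed collagen counts to reach the threshold. The VLMC and ABC shares, their ratio and the fold changes of 4 genes between domains are also given without aplCoA replicate 1.

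The threshold cut through a continuous range. Marker UMIs had a median of 6 and a maximum of 56, 273 nuclei lay just inside with exactly 3 UMIs, and 301 nuclei that met the other conditions lay just outside with exactly 2. Both Slc6a13 and a collagen were counted in 1112 nuclei, Slc6a13 without collagen in 497 and collagen without Slc6a13 in 26. Of the chosen nuclei, whose Slc47a1 count the rule limits, 1622 held no UMI of it and 13 held 1, and 89 further nuclei were set aside for exceeding that limit. Another 130 exceeded the neuronal limit. Doublets were not removed. The doublet caller Scrublet scored the nuclei, and a set number with the highest scores per library was marked, at an assumed rate of 1% per 1000 nuclei. These marked nuclei, given below as those Scrublet would have removed, included 111 VLMC nuclei.

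The label was checked against 18 VLMC identity markers, which include the 3 that chose the nuclei. Of these, 17 were detected in at least 10% of VLMC nuclei and 13 had their highest pooled level in VLMCs among 11 classes, beside 14.2% of all 6292 genes so detected. Without the 3 selecting genes, 10 of 14 detected markers were highest in VLMCs. The 11 classes leave out 21359 nuclei that met no class's conditions. Ptgds, the enzyme that makes prostaglandin D2, was at 29017 ± 3891 CPM (SD, n = 6 replicates), Ranbp3l at 4078 ± 425 CPM, and the cystine/glutamate exchanger Slc7a11 at 2285 ± 440 CPM. The mesenchymal transcription factors Tbx18 and Foxc1 were also highest in VLMCs, at 238 ± 24.1 and 131 ± 18.3 CPM. Cped1, Foxd1 and Bnc2 were higher in ABCs, so Bnc2, given as a marker of these cells, was shared with the arachnoid barrier and at a higher level there. Pdgfra, a growth factor receptor of both VLMCs and oligodendrocyte precursors, had its highest level in the precursors, which were themselves chosen on Pdgfra and Cspg4.

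Defining markers of other cell types were near 0. In pooled counts, the endothelial Cldn5 and the pericyte Rgs5 each stood at 0.278 CPM, the macrophage receptor Mrc1 at 2.37, the myelin gene Mog at 3.76 and the water channel Aqp4 at 6.27. Some genes listed as markers of other classes were nonetheless present, among them the glutamate transporter Slc1a3 at 1621 CPM, the gap junction gene Gja1 at 220 and Flt1 at 180, against 4061 for Flt1 in endothelial nuclei, which were chosen on a panel that includes Flt1. With the panel of oligodendrocyte precursors (Pdgfra and Cspg4) left aside, another class's panel reached 2 UMIs in 677 VLMC nuclei, and in 75 once Gja1 and Flt1 were not counted either. The precursor panel reached 3 UMIs in 155.

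**Figure D1:**
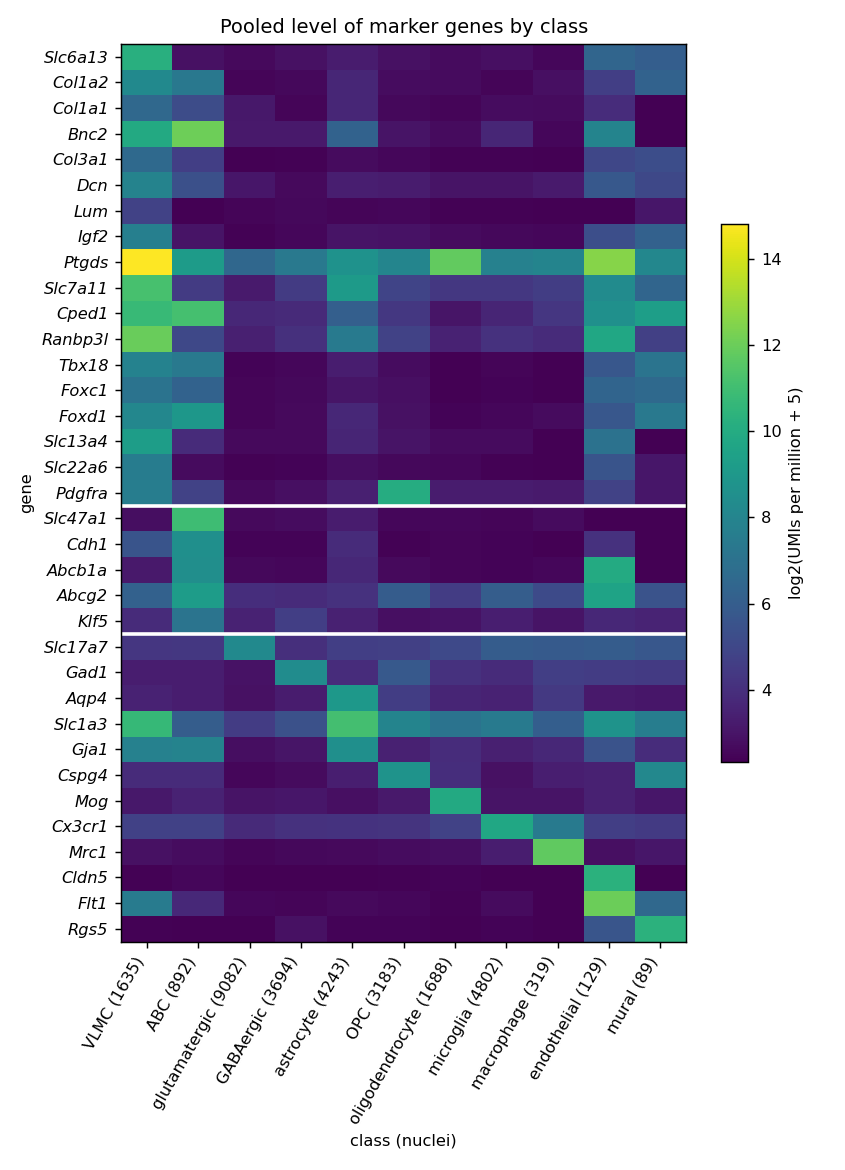
Pooled level of VLMC markers (top), ABC markers (middle) and markers of other classes (bottom) in 11 classes, as log2 of CPM plus 5, with the number of nuclei in brackets. Slc6a13 reached 1176 CPM in the 1635 VLMC nuclei and at most 79.1 CPM elsewhere, whereas Bnc2 was higher in ABCs (4291 CPM) than in VLMCs (946 CPM).

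Solute transport genes were divided between VLMCs and ABCs. Of 37 transporter genes, 27 were detected in at least 10% of nuclei of either class, and 14 of these were at least 2-fold higher in VLMCs in all 6 replicates while 10 were at least 2-fold higher in ABCs. Among all 7292 detected genes the corresponding shares were 6.54% and 5.87%. The selection used genes of this same contrast, so nothing is read from these counts. The same shares of all genes are the background for the counts of other groups given below, which are likewise descriptions.

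Slc6a20a, a transporter of proline and related imino acids, stood at 3155, 3353 and 2894 CPM in aplCoA VLMCs and at 2692, 3484 and 2809 CPM in pplCoA VLMCs. In ABCs its mean was 8.24 ± 12.9 CPM. Slc13a3 and Slc13a4, carriers of dicarboxylates and of sulfate, had 625 ± 104 and 634 ± 44.1 CPM in VLMCs against 0.732 ± 0.969 and 7.38 ± 6.60 CPM in ABCs. The organic anion transporters Slc22a6 and Slc22a8, which clear drugs and metabolites, were at 183 ± 11.3 and 538 ± 80.7 CPM against 1.41 ± 1.41 and 18.3 ± 14.4 CPM. The selecting gene Slc6a13 (chromosome 6, 121300227 to 121337733, plus strand, build GRCm38) was even across replicates, at 1184, 1145 and 1137 CPM in aplCoA and 1157, 1253 and 1353 CPM in pplCoA.

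ABCs carried a different set of transporters and channels. Slc47a1 was at 1998 ± 101 CPM there and 2.00 ± 0.955 CPM in VLMCs, as chosen. The sodium-driven bicarbonate transporter Slc4a10 stood at 5829 ± 1179 against 30.6 ± 24.4 CPM, the anion exchanger Slc26a7 at 686 ± 135 against 0.656 ± 1.11 CPM, and the mechanically gated channel Piezo2 at 980 ± 108 against 5.74 ± 2.80 CPM. The amino acid transporter Slc38a2 was present in both classes and higher in ABCs, at 3473 ± 563 against 497 ± 109 CPM. Ranges of the 6 replicates did not overlap between the classes for any of these genes. Slc47a1 chose the ABC nuclei, and the others were named for their differences or after their values were seen. Nothing is read from this separation.

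**Figure D2:**
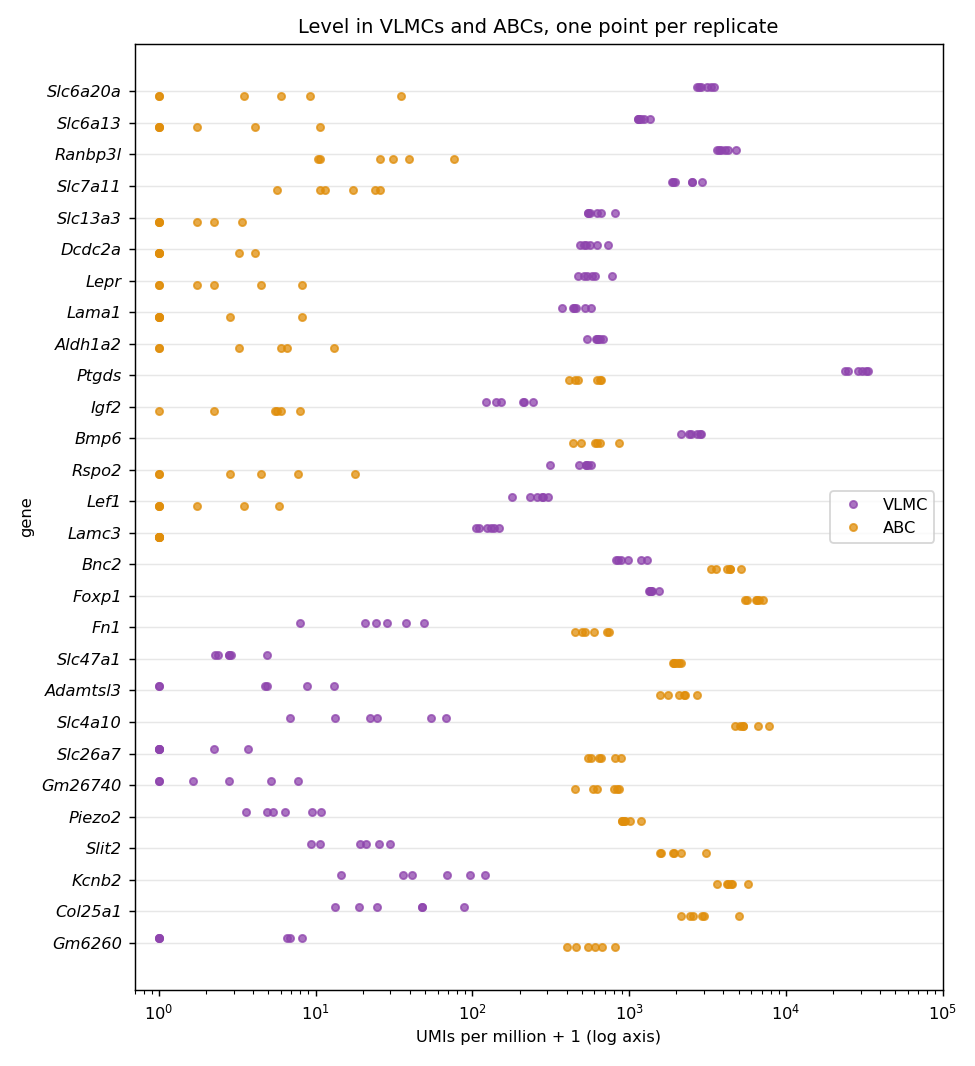
Level of selected genes in VLMC (purple) and ABC (orange) nuclei, 1 point per replicate, as CPM plus 1 on a log axis. Slc6a20a lies between 2692 and 3484 CPM in VLMCs with an ABC mean of 8.24 CPM, and Adamtsl3 at the other end has 2110 CPM in ABCs and 4.58 CPM in VLMCs.

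Basement membrane genes were split by chain. Lama1, a laminin alpha chain of embryonic and pial basement membranes, was at 468 ± 69.9 CPM in VLMCs and 1.52 ± 2.90 CPM in ABCs, and Lamc3 was at 125 ± 16.0 CPM in VLMCs with no UMI in ABCs. That count of 0 allows up to 0.736 CPM over the 4078119 ABC UMIs, so Lamc3 was at least 170-fold higher in VLMCs. The collagen IV chains Col4a5 and Col4a6, whose genes lie head to head, were at 359 ± 57.7 and 273 ± 47.1 CPM against 6.56 ± 2.87 and 0.206 ± 0.504 CPM. The common chains Col4a1 and Col4a2 were close in the classes, at 58.0 ± 9.37 and 66.2 ± 13.9 CPM in VLMCs and 49.5 ± 10.2 and 53.6 ± 10.7 CPM in ABCs. Of 12 detected laminin and basement membrane genes, 4 were at least 2-fold higher in VLMCs in all replicates and 1, the fibronectin gene Fn1, in ABCs (588 ± 119 against 27.0 ± 14.2 CPM).

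Fibrillar collagens were present in both classes. Col1a2 stood at 301 ± 23.4 CPM against 144 ± 13.7 CPM in ABCs, Col3a1 at 88.7 ± 16.9 against 25.5 ± 13.8 CPM, and Col5a2 at 140 ± 19.1 against 123 ± 32.7 CPM. Only Col5a1, at 119 ± 54.6 against 5.66 ± 4.11 CPM, met the 2-fold rule in every replicate among 7 detected members. Among network and fibril-associated collagens 5 of 15 detected members were higher in VLMCs and 7 in ABCs by the 2-fold rule, with Col26a1 at 389 ± 80.5 against 8.17 ± 6.99 CPM and Col23a1 at 163 ± 25.2 against 955 ± 150 CPM.

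Small leucine-rich proteoglycans bind collagen fibrils and set their spacing. Of 7 detected members, 5 were at least 2-fold higher in VLMCs in all replicates and 0 were at least 2-fold higher in ABCs in all replicates. Decorin (Dcn) was at 228 ± 34.7 against 46.7 ± 21.5 CPM, osteoglycin (Ogn) at 216 ± 35.1 against 47.9 ± 13.04 CPM, and fibromodulin (Fmod) at 153 ± 15.7 against 0.878 ± 1.15 CPM. Biglycan (Bgn) was at 29.7 ± 4.39 against 34.0 ± 14.8 CPM. Among matrix proteases and their inhibitors 5 of 12 detected members were higher in ABCs by the 2-fold rule, including the metalloprotease Mmp16 (797 ± 191 against 101 ± 7.31 CPM), and 1, the inhibitor Timp3, was higher in VLMCs (882 ± 54.8 against 117 ± 46.3 CPM).

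WNT ligands signal between cells through Frizzled receptors. Of 15 detected WNT genes, 9 were at least 2-fold higher in VLMCs in all replicates and 3 in ABCs, beside 6.54% and 5.87% of all genes. The ligands Wnt5b, Wnt5a and Wnt4 were at 245 ± 44.9, 140 ± 29.5 and 124 ± 12.5 CPM in VLMCs, the WNT potentiator Rspo2 at 493 ± 94.0 CPM, the receptor Ror2 at 315 ± 51.7 CPM, and Lef1, a nuclear effector of the pathway, at 255 ± 44.9 CPM. None of these exceeded a mean of 12.1 CPM in ABCs. Wnt9a, Wnt16 and Rspo3 were the members that were higher in ABCs by that rule.

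Bmp6 and Bmp7, ligands of the BMP branch, stood at 2578 ± 282 and 368 ± 53.2 CPM in VLMCs against 610 ± 146 and 46.9 ± 16.3 CPM in ABCs. Across the BMP and TGF-beta list, 2 of 20 detected members were higher in VLMCs and 7 in ABCs by the 2-fold rule. Of the retinaldehyde dehydrogenases, which make retinoic acid, Aldh1a2 was at 625 ± 48.1 CPM in VLMCs and 4.14 ± 4.55 CPM in ABCs, and Aldh1a1 at 154 ± 46.1 and 85.7 ± 24.9 CPM. The retinoic acid degrading enzyme Cyp26b1 was at 69.0 ± 27.8 CPM against 0.103 ± 0.252 CPM.

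Of 11 detected insulin-like growth factor genes, 3 were at least 2-fold higher in VLMCs in all replicates and 1 in ABCs, beside 6.54% and 5.87% of all genes. Igf2, a fetal growth factor that persists in the meninges, was at 179 ± 48.7 CPM in VLMCs against 3.72 ± 2.59 CPM in ABCs, its binding protein Igfbp2 at 343 ± 41.7 against 12.4 ± 8.19 CPM, and Igfbp5 at 24.3 ± 10.6 against 657 ± 104 CPM. Vcam1, an adhesion receptor for leukocytes, and Il34, a ligand of the microglial and macrophage receptor Csf1r, were at 58.5 ± 21.1 and 265 ± 38.0 CPM in VLMCs against 1.51 ± 1.77 and 7.75 ± 3.97 CPM. The leptin receptor gene Lepr was at 582 ± 108 CPM against 2.12 ± 2.82 CPM.

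Mesenchymal transcription factors included members high in either class. Of 31 detected, 3 were at least 2-fold higher in VLMCs in all replicates and 8 in ABCs, beside 6.54% and 5.87% of all detected genes. Foxp1, Foxp2 and Tbx15 were at 6317 ± 631, 2815 ± 421 and 1193 ± 161 CPM in ABCs and at 1396 ± 79.1, 309 ± 51.7 and 266 ± 43.8 CPM in VLMCs. Zic1, a zinc finger factor of meningeal precursors, was at 328 ± 23.3 CPM in VLMCs and 179 ± 20.7 CPM in ABCs.

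Between domains, the share of VLMC nuclei was higher on average in aplCoA but did not pass the test. It was 2.37%, 7.30% and 5.12% of nuclei in aplCoA replicates 1 to 3 and 1.75%, 2.25% and 2.45% in pplCoA, which gives 4.93 ± 2.47% and 2.15 ± 0.360% (SD, n = 3). The groups overlapped, since aplCoA replicate 1 lay below the highest pplCoA replicate. The difference on the logit scale was 0.76 (SE 0.31, limma adjusted p = 0.0898 over 11 classes) and the exact permutation test gave p = 0.2 (two-sided). The domains did not overlap at marker minimums of 2 or 5 UMIs, or with Scrublet doublets removed. Nor did they with library 2 alone for aplCoA replicate 1 (exact permutation p = 0.1 each, the smallest possible). Without aplCoA replicate 1, whose empty droplets held most collagen RNA, the difference passed, at 4.06 percentage points with a limma adjusted p of 0.0116. Without aplCoA replicate 2 the difference was 1.59 percentage points, with a limma adjusted p of 0.191.

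ABC nuclei passed in the same test, at 2.31 ± 0.647% in aplCoA and 0.793 ± 0.130% in pplCoA (limma adjusted p = 0.0105), with no overlap between the domains, and with any replicate left out (adjusted p of 0.0025 to 0.0437, and 0.0136 without aplCoA replicate 1). Border macrophages, which also live in the meninges, passed as well, at 0.790 ± 0.0912% against 0.450 ± 0.0880% (limma adjusted p = 0.0450). Classes of the parenchyma differed too without passing. Astrocytes were at 9.67 ± 1.13% against 6.54 ± 1.80% (limma adjusted p = 0.0898). Microglia (8.01% against 11.3%) and oligodendrocyte precursors (5.41% against 7.95%) were lower in aplCoA without overlap (limma adjusted p = 0.0616 each). All shares have the same total, so they do not vary independently. That total includes nuclei assigned to no class, 34.4% to 43.9% of a replicate. The shares are therefore not full proportions of each cell type. The number of VLMC nuclei per ABC nucleus tests whether the meningeal classes moved apart. It was 1.05, 4.31 and 1.72 in aplCoA and 2.70, 2.72 and 2.72 in pplCoA, so pplCoA pools were nearly identical while aplCoA pools lay on either side of them. The log2 ratio differed by -0.46 (exact permutation p = 0.6, two-sided), and by 0.0030 without aplCoA replicate 1. Without aplCoA replicate 2 it differed by -1.02 (exact permutation p = 0.1, the smallest possible). The share of meninges carried along with each dissected block was not recorded in the labels, and a difference in it cannot be told apart from a difference between domains.

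**Figure D3:**
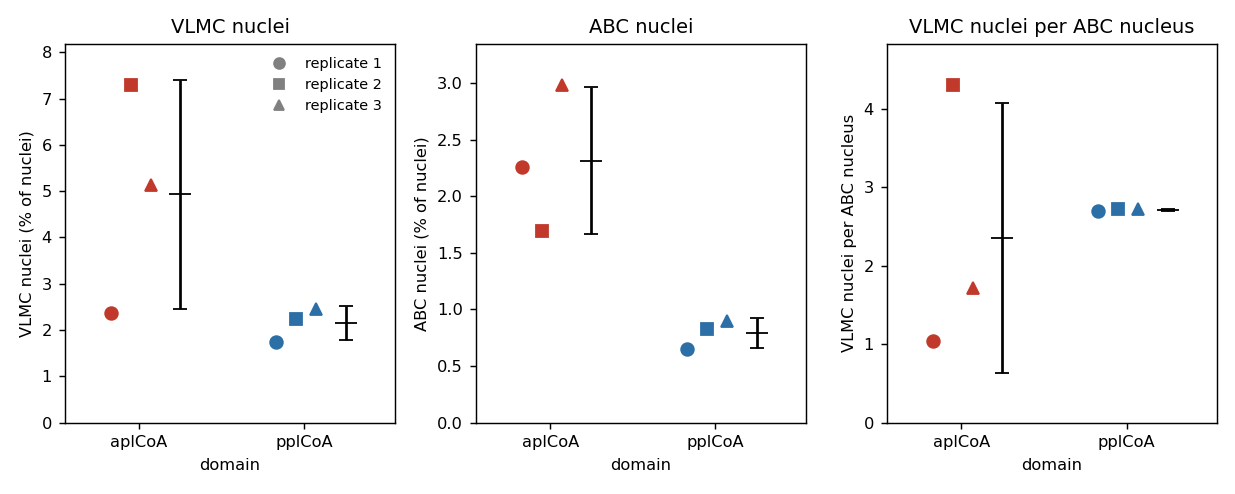
VLMC nuclei (left) and ABC nuclei (middle) as a percent of all nuclei, and VLMC nuclei per ABC nucleus (right), for the 3 replicates of each domain, with the mean and SD. The ABC shares separate the domains. At the threshold of 3 marker UMIs the VLMC shares overlap (2.37% in aplCoA replicate 1 against 2.45% in pplCoA replicate 3), and the ratio is 2.70 to 2.72 in all pplCoA replicates.

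Depth was compared over VLMC nuclei. The median UMI count per nucleus was 3970 ± 607 in aplCoA and 3546 ± 206 in pplCoA (exact permutation p = 0.3). The difference of 424 UMIs was 102 without aplCoA replicate 2 and 705 without aplCoA replicate 3. The median number of genes was 1909 ± 152 and 1776 ± 81.3. The mitochondrial share of UMIs differed without overlap, at 0.0612 ± 0.00738% in aplCoA against 0.0289 ± 0.00773% in pplCoA. It was also higher in all aplCoA replicates in ABCs (0.0487 ± 0.00516% against 0.0286 ± 0.00829%) and in astrocytes (0.0497 ± 0.00483% against 0.0250 ± 0.00563%).

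No gene passed the test between domains within VLMCs. Of 6292 genes detected in at least 10% of VLMC nuclei, 0 (0%) passed an adjusted p of 0.05 in edgeR's quasi-likelihood test, while 332 (5.28%) had an unadjusted p under 0.05. All 3 aplCoA replicates lay above all 3 pplCoA replicates in 4.94% of genes and below them in 5.39%. The likelihood ratio test of edgeR called 4 genes (Spo11, Gm16159, Gm9968 and mt-Co1) and DESeq2 called 2 (Spo11 and mt-Co1).

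Identity markers were compared between domains. Over the 14 tested that did not choose the nuclei, log2 fold changes (aplCoA over pplCoA) ranged from -0.29 for Bnc2 to 0.70 for Igf2, with a median of -0.03 beside 0.01 for all genes. Of all 17 tested, 2 had no overlap between domains, Igf2 and Col1a1, both with aplCoA above. Among all genes, 4.94% had aplCoA above without overlap and 5.39% below, and nothing is read from the count of 2. Col1a1 is a selecting gene, and in the first library of aplCoA replicate 1 alone it was at 72.0 CPM, below pplCoA replicate 2 at 78.7 CPM. Igf2 (chromosome 7, 142650766 to 142666816, minus strand) was at 210, 211 and 243 CPM in aplCoA and 150, 140 and 121 CPM in pplCoA, a log2 fold change of 0.70 (SE 0.15, unadjusted p = 0.000498 and adjusted p = 0.559 in edgeR's quasi-likelihood test). Among empty droplets, Igf2 was at 6.01, 27.7 and 39.5 CPM in aplCoA and 5.16, 11.3 and 10.5 CPM in pplCoA, and its part in the VLMC values was not tested.

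Of 7 insulin-like growth factor genes tested, Igf2 and Igf2r (28.6%) had an unadjusted p under 0.05, beside 5.28% of all genes. Igfbp2 was at 348, 381 and 388 CPM in aplCoA and 333, 333 and 272 CPM in pplCoA, a log2 fold change of 0.26 (SE 0.13). Igf2r, the receptor that takes up IGF2 for degradation, was lower in every aplCoA replicate, at 109, 104 and 109 CPM against 145, 141 and 138 CPM, a log2 fold change of -0.39 (SE 0.14, unadjusted p = 0.0155 in edgeR's quasi-likelihood test). Igf1r and Insr overlapped between the domains, with log2 fold changes of 0.06 and 0.05.

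**Figure D4:**
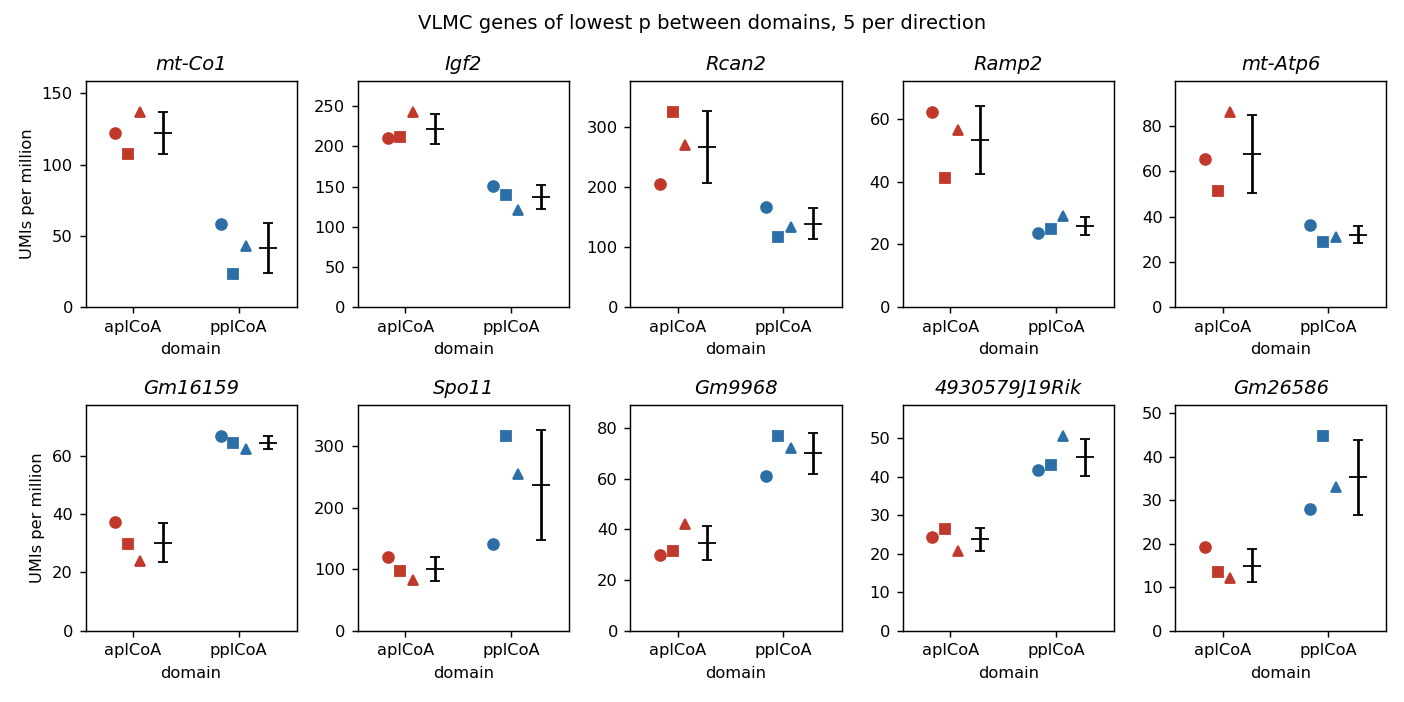
Level in VLMC nuclei, as CPM, of the 5 genes of lowest p in each direction between domains, with circles, squares and triangles for replicates 1 to 3 and bars for mean and SD. None of the 10 passed an adjusted p of 0.05 in edgeR's quasi-likelihood test. In all 10 the domains did not overlap, beside 4.94% of all genes with aplCoA above and 5.39% below. The 10 were picked for low p in these same replicates, so nothing is read from this. Igf2 was at 210 to 243 CPM in aplCoA and 121 to 150 CPM in pplCoA.

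The gene of lowest p was mt-Co1, a mitochondrially encoded subunit of cytochrome oxidase, at 122, 108 and 137 CPM in aplCoA against 58.5, 23.3 and 42.8 CPM in pplCoA. Its log2 fold change was 1.54 (SE 0.26, adjusted p = 0.559 in edgeR's quasi-likelihood test). Of 8 mitochondrially encoded genes tested, 7 had an unadjusted p under 0.05 in that direction, beside 165 of all 6292 genes. In 7 of the 8, aplCoA lay above without overlap, beside 4.94% of all genes. Their median log2 fold change was 1.08, beside 0.01 for all genes. The log2 fold change of mt-Co1 was 1.30 in ABCs and 0.89 in astrocytes (adjusted p = 0.0751 in astrocytes in edgeR's quasi-likelihood test). Another of these genes, mt-Atp6, passed in astrocytes, with a log2 fold change of 1.31 there (adjusted p = 0.0348 in edgeR's quasi-likelihood test), 1.03 in ABCs and 1.09 in VLMCs. Mitochondrial transcripts are made outside the nucleus, and their part in other VLMC differences was not tested.

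Other genes of low p were Rcan2, a regulator of calcineurin (206, 325 and 270 CPM against 167, 116 and 134 CPM, log2 fold change 0.94, SE 0.20), and Ramp2, a partner of the adrenomedullin receptor (62.2, 41.2 and 56.5 against 23.7, 25.1 and 29.2 CPM, log2 fold change 1.06, SE 0.24). In the other direction was Spo11, known for cutting DNA in meiosis, at 121, 97.9 and 83.0 CPM in aplCoA and 141, 317 and 255 CPM in pplCoA. Its log2 fold change was -1.22 (SE 0.25, adjusted p = 0.559 in edgeR's quasi-likelihood test, 0.0204 in the likelihood ratio test and 0.0206 in DESeq2). The remaining ones, Gm16159, Gm9968, 4930579J19Rik and Gm26586, are genes without an established function, with log2 fold changes from -1.22 to -0.92. Gm16159, at -1.10 in VLMCs, was at -0.91 in ABCs and passed in astrocytes, at -1.31 (adjusted p = 0.0284 in edgeR's quasi-likelihood test). Rcan2 had log2 fold changes of 0.95 in ABCs and -0.02 in astrocytes. Without aplCoA replicate 1 the log2 fold changes in VLMCs were 0.73 for Igf2, 1.09 for Rcan2, 1.53 for mt-Co1 and 0.42 for Col1a1.

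Counts of low p in the functional groups stand beside 5.28% of all genes tested, and no member of any group passed the adjusted p in edgeR's quasi-likelihood test. Of 18 transporters tested, 4 (22.2%) had an unadjusted p under 0.05, 1 of them with aplCoA higher (Slc38a2, log2 fold change 0.49) and 3 with pplCoA higher (Slc4a4, Slc22a8 and Slc38a4, at -0.49, -0.30 and -0.81). Among 17 adhesion and junction genes the count was 5 (29.4%), 2 with aplCoA higher and 3 with pplCoA higher, with Gjb2, a connexin of leptomeningeal cells, at 85.8, 73.4 and 66.8 CPM in aplCoA against 43.2, 55.5 and 48.7 CPM in pplCoA and Tjp1, a tight junction scaffold, at 714, 720 and 689 against 777, 884 and 1045 CPM. Of 8 prostaglandin and steroid genes 3 (37.5%) had such a p, Cyp7b1 and Ephx2 with aplCoA higher and Ptger3 with pplCoA higher, and of 9 chemokine, cytokine and complement genes 2 (22.2%), Il34 and Vcam1, both with aplCoA higher. Vcam1 was at 83.9, 66.3 and 74.9 CPM in aplCoA and 58.5, 32.2 and 35.0 CPM in pplCoA. Of 5 ABC identity markers tested, Cdh1 and Slc4a4 had such a p, both with pplCoA higher. The other matrix, signalling and transcription factor groups held at most 1 such gene each, apart from Igf2 and Igf2r. WNT genes (11 tested) and small leucine-rich proteoglycans (6 tested) had 0 in either direction in edgeR's quasi-likelihood test at an unadjusted p under 0.05. Immediate early and heat shock genes also had 0 of 6.

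Markers of other cell types were compared in the same nuclei. Their summed levels overlapped between domains for 8 of 9 lists, with microglial genes at 120 to 208 CPM in aplCoA and 116 to 340 CPM in pplCoA. The exception was the mural list, at 211 to 260 CPM in aplCoA and 266 to 304 CPM in pplCoA, and its level came mostly from Pdgfrb, a growth factor receptor that VLMCs share with pericytes. Pdgfrb alone overlapped, at 138 to 164 CPM in aplCoA and 130 to 174 CPM in pplCoA, as did Tagln, at 28.0 to 57.3 and 29.2 to 89.5 CPM. The smooth muscle actin gene Acta2 did not, at 1.79 to 14.2 and 18.1 to 35.8 CPM. Rgs5, a defining pericyte marker, was at most 1.39 CPM in any replicate. The myelin gene Mbp was higher in aplCoA without overlap, at 27.1 to 59.2 CPM against 14.3 to 25.3 CPM, and in empty droplets its levels overlapped between domains.

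Whether domain effects differed between VLMCs and other classes was tested as an interaction with replicate as a block, which is needed because the classes share libraries. Against ABCs, 0 of 7292 genes (0%) passed in edgeR's quasi-likelihood test, with 530 at an unadjusted p under 0.05 and 71 by the likelihood ratio test. Against astrocytes, 0 of 7259 (0%) passed, with 560 at an unadjusted p under 0.05 and 112 by the likelihood ratio test. The interaction against ABCs had an adjusted p of 0.928 for mt-Co1 and 0.696 for Igf2 in edgeR's quasi-likelihood test. Igf2 was detected in under 10% of ABC nuclei of either domain. Its interaction therefore cannot show whether the domain effect differs in ABCs, and nothing is read from it.

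VLMC nuclei were not uniform. Clustering without the selecting genes gave 9 groups of 440 to 41 nuclei, each present in all 6 replicates. The groups were drawn from the counts described here, so levels between them are descriptions, and the number of groups changed to 5 and 12 at lower and higher resolution.

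Bnc2, which encodes a zinc finger protein of fibroblasts, was one of the genes that varied among them. No Bnc2 UMI was found in 800 nuclei (48.9%), while 669 (40.9%) held at least 3 and the highest nucleus held 86. The share at 0 lay between 38.3% and 51.8% in every replicate. The grouping used Bnc2, so its levels between groups are a description. A Bnc2 UMI was present in 3.18% of group 1, at a median of 2886 UMIs, and in 98.6% of group 2, at a median of 4454. With each nucleus thinned to 2000 UMIs, which left out 68 and 7 nuclei, the shares were 3.23% and 94.5%, and 98.7% in ABCs. In microglia, which should lack the gene, it was 2.67% before and 1.36% after thinning at a median of 4079 UMIs.

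Group 1, with 440 nuclei, was led by Tbx3os1, Cemip, Ccn1, Ndnf and Fam118a. Cemip, which breaks down hyaluronan, stood at 887 ± 329 CPM (n = 6) against 11.03 ± 11.9 CPM in group 2, and Ndnf, a secreted neurotrophic factor, at 525 ± 162 against 2.02 ± 2.47 CPM. Slc7a11 was at 4878 ± 766 against 730 ± 212 CPM, Lama1 at 1043 ± 151 against 287 ± 81.8 CPM, and Dcn at 361 ± 31.0 against 79.2 ± 20.2 CPM. Replicate ranges of Slc7a11 did not meet (4368 to 6235 and 432 to 1010 CPM). The grouping used Slc7a11, so this is a description. Bnc2 in group 1 was at most 62.7 CPM in any replicate.

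Group 2, with 422 nuclei, was led by Ccdc192, Slc9a2, Cdh1, 5830418P13Rik and Pkhd1. Its Bnc2 level was 1968 to 2562 CPM. Rspo2 was at 1251 ± 283 CPM against 7.66 ± 11.3 CPM in group 1, Slc9a2, a sodium/proton exchanger, at 257 ± 79.1 against 1.49 ± 3.65 CPM, and E-cadherin (Cdh1) at 136 ± 38.8 CPM with no UMI in group 1, a count of 0 that allows up to 2.15 CPM over that group. Cdh1 and Bnc2 are also genes of ABCs, and the summed ABC identity markers were higher in group 2 than in any other group, at 1539 CPM in pooled counts against 916 CPM in group 1. The bicarbonate transporter Slc4a4 is on that list and made up 928 CPM of that sum in group 2. Over replicates it was at 1013 ± 267 CPM in group 2 and 408 ± 53.7 CPM in group 1. In pooled counts Gjb6 and Klf5 of the list were lower in group 2, at 210 and 6.27 against 362 and 13.6 CPM. Cldn11 and Msx1 were higher there, at 44.9 and 83.5 against 12.2 and 23.0 CPM. Of the 5 list members detected in VLMCs, 2 had their highest level of all classes in VLMCs. Other genes with higher levels in ABCs than in VLMCs went in either direction. In group 2 against group 1, Slc4a10 was at 38.2 ± 46.6 against 9.80 ± 5.29 CPM and Adamtsl3 at 11.5 ± 14.3 against 1.35 ± 2.27 CPM, while Piezo2 was at 2.88 ± 4.01 against 15.1 ± 16.1 CPM. In pooled counts Col23a1 was at 97.5 against 311 CPM, Foxp1 at 1369 against 1816 CPM and Foxp2 at 366 against 482 CPM. Slc6a13 was close in the groups, at 1328 ± 80.9 and 1354 ± 131 CPM.

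Group 3, with 204 nuclei, was led by the cytokine receptor gene Il31ra, the nuclear receptor gene Esrrg, Adam33, Plce1 and Il13ra2. Il31ra stood at 315 ± 113 CPM there and 5.03 ± 5.61 CPM in group 2. Like group 1 it was high in Slc7a11 (4085 ± 458 CPM) and had no Bnc2 UMI in 81.9% of nuclei. Group 5, with 142 nuclei, was led by Serpina1b, Megf11, Arhgap24, Tmem116 and Zfp385c and had the smallest leading differences of the 9, none above 1.66 on the log2 scale.

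Groups 4 and 6 shared the highest Ptgds, at 78904 ± 13980 and 90168 ± 11889 CPM against 12081 ± 2978 in group 1. Group 4, with 150 nuclei, was led by Pde3b, Rbp4, Gm10790, Cx3cr1 and Csf1r, and held Cyp26b1 at 304 ± 171 CPM against 56.3 ± 29.7 in group 1 and 0.825 ± 2.02 in group 2. Rbp4, the retinol carrier, was at 183 ± 180 CPM there. Cx3cr1 and Csf1r are microglial genes, and 15 of the 150 nuclei held at least 3 microglial UMIs. Pde3b, Gm10790, Cx3cr1 and Csf1r were each found in only 10% to 11.3% of the nuclei of group 4, and Rbp4 in 31.3%. Scrublet would have removed 20 of the 150. Group 6, with 131 nuclei, was led by Cd79a, Gpx3, Agt, Ptgds and Spp1 and carried Bnc2 in all but 3.82% of nuclei. Ribosomal protein genes took 1.71% and 1.23% of UMIs in groups 4 and 6 and 0.391% to 0.601% in the others.

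Group 7, with 55 nuclei, was led by Eln, Nox4, Ltbp1, Ebf2 and Emp1. Eln, which encodes elastin, was at 969 ± 837 CPM there and at most 74.4 CPM on average in any other group, and Dcn was at 847 ± 474 CPM. It was also the group whose share of VLMC nuclei did not overlap between domains, at 2.71 ± 1.27% in aplCoA and 4.88 ± 1.51% in pplCoA (exact permutation p = 0.1, the smallest possible, and 0.675 adjusted over 9 groups). For the other 8 groups the shares overlapped. They were 27.2 ± 3.73% and 27.2 ± 1.26% in group 1, 24.6 ± 1.38% and 30.0 ± 5.34% in group 2, and 13.9 ± 3.86% and 9.49 ± 6.58% in group 3. The part of group shares in genes of low p between domains was not tested.

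Groups 8 and 9, with 50 and 41 nuclei, were led by genes of other cell types. Group 8 was led by Pcdh15, Ctnna3, Lhfpl3, Dscam and Nrg3os, and group 9 by Gpc5, Gm20713, Slc1a2, Rorb and Gm6145, of which Slc1a2 is the main glutamate transporter of astrocytes. Scrublet would have removed 40 and 35 of these nuclei, and their median UMI counts were 9762 and 6896 against 2886 to 4454 in the other groups. With all nuclei that Scrublet removes left out, 0 of 6134 genes differed between domains in edgeR's quasi-likelihood test (429 at an unadjusted p under 0.05).

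**Figure D5:**
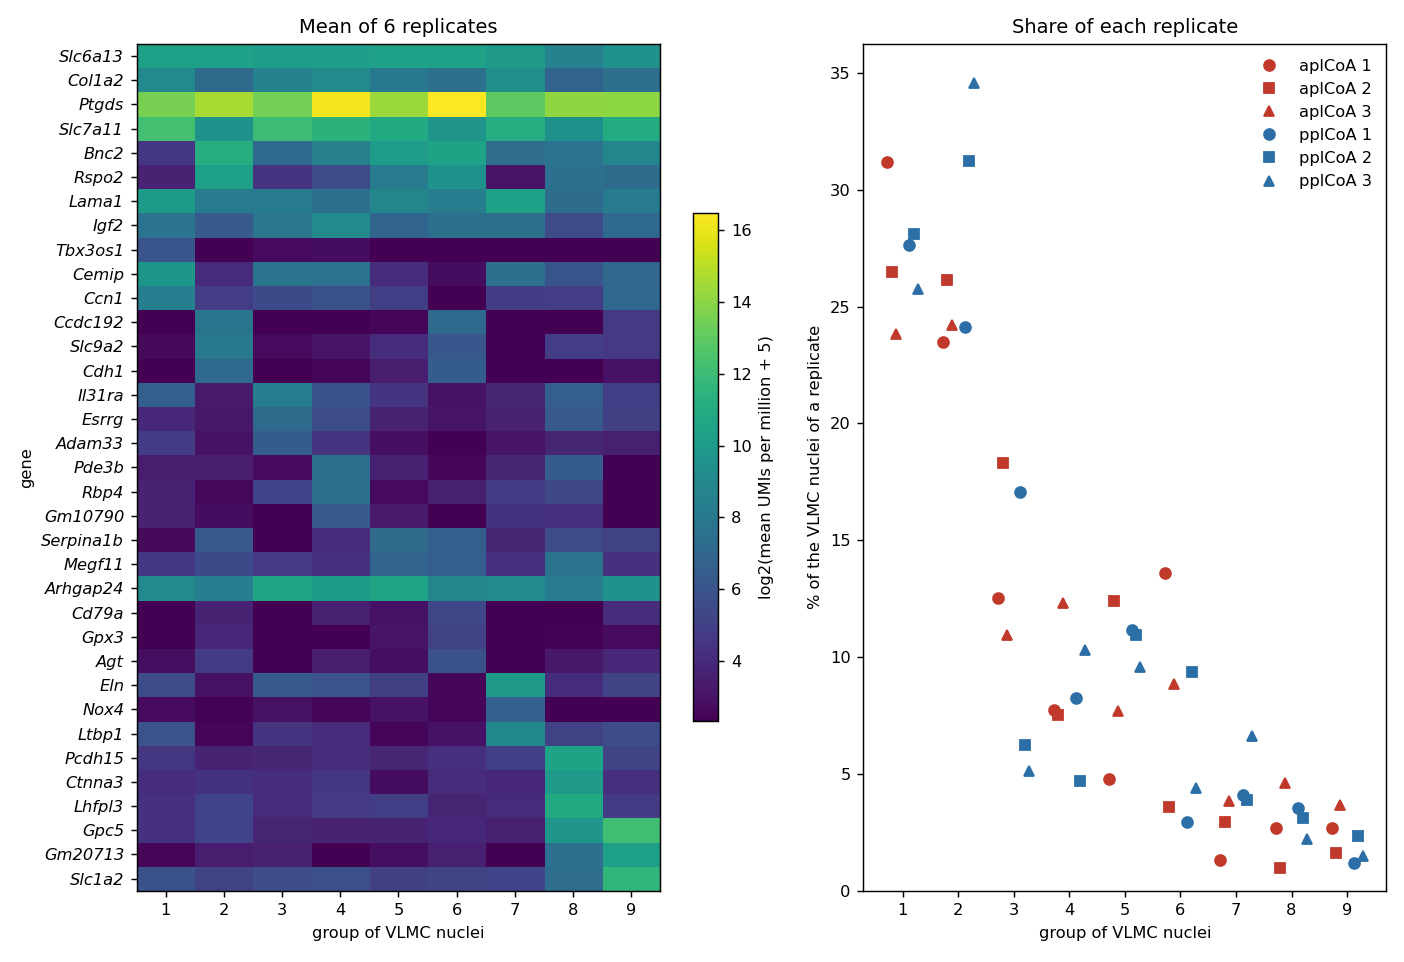
Level of marker and leading genes in 9 groups of VLMC nuclei as log2 of the mean CPM over 6 replicates plus 5 (left), and each group's share of the VLMC nuclei of each replicate in percent (right). Bnc2 and Rspo2 are high in group 2 and low in group 1, where Slc7a11 and Cemip are high, and each group holds nuclei of all 6 replicates.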

How the data were processed

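Nuclei from 7 libraries of 10x Genomics 3′ RNA were analysed. The authors deposited raw UMI counts per gene and barcode, made with Cell Ranger 5.0.0 per the submitters' processing notes, on the mm10 (GRCm38) genome. From these counts, nuclei (at least 1000 genes, at most 30000 UMIs) were assigned to 11 classes by marker counts. Of 51115 nuclei, 21359 met no class's conditions and stayed unassigned, in the total but in no class. The libraries of aplCoA replicate 1 were summed. Counts were then summed over nuclei per replicate and class, given as CPM (counts-per-million), and tested in genes detected in at least 10% of nuclei with edgeR 4.0.16 (TMM, quasi-likelihood, Benjamini-Hochberg). DESeq2 1.42.0 was an alternative. Class shares were tested on the logit scale with limma 3.58.1 and, like ratios, by exact permutation. Differences from ABCs are on log2(CPM + 5). Replicates are pools of animals. Scrublet scores came from scanpy 1.11.5, and the highest-scoring nuclei of each library were marked at an assumed rate of 1% per 1000 nuclei. Groups came from Pearson residuals of 2000 genes, 20 components and Leiden clustering at resolution 0.5.

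Members and gene lists were chosen with earlier results of these data known. Named genes are the selecting genes, the identity list, the 5 of lowest p per direction between domains, the 10 largest differences per direction from ABCs (at least 50 CPM), up to 4 per list by level, and 5 leading genes per group; Bmp7, Fn1, Igfbp5, Tbx15, Cyp26b1, Slc22a6, Slc22a8, Slc38a2, Slc13a4, Vcam1, Il34, Igf2r, Gjb2 and the other members given by name were added after their values were seen. Some genes that these choices name are not reported here. UMIs of mitochondrial genes may include nuclear copies. The test code was tested on simulated data.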

Additional observations from a re-analysis of the deposited data

Results flagged for a closer look

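Droplets with under 100 UMIs, which the comparisons did not use, held more type I collagen RNA in aplCoA replicate 1 than in any other replicate. Col1a1 stood at 132.2 CPM there and between 5.70 and 17.7 CPM elsewhere, and Col1a2 at 140.2 CPM against 11.7 to 31.1 CPM. Slc6a13 in the same droplets was at 19.5 CPM, the lowest of the 6 replicates (20.6 to 48.7 CPM in the others), and Dcn was at 43.5 CPM, within their range. VLMC nuclei of the 2 libraries of this replicate held 72.0 and 99.1 CPM of Col1a1. The part of this RNA in other results was not tested.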

How the results depend on the processing

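The VLMC share kept its direction under every alternative tried, with differences of 1.59 to 4.06 percentage points when a replicate was left out. Only without aplCoA replicate 1 did it pass (4.06, limma adjusted p = 0.0116). Its overlap between domains did depend on the processing. The domains separated at marker minimums of 2 and 5 UMIs, with Scrublet doublets removed and with library 2 alone for aplCoA replicate 1 (limma adjusted p of 0.0502 to 0.0863). The ABC share differed by 1.18 to 1.83 points with a replicate left out, an alternative chosen after seeing the data, and passed each time. The log2 ratio of VLMC to ABC nuclei ranged from -1.02 to 0.0030 over the same omissions, and changed sign without aplCoA replicate 1 (0.0030). Genes differing between domains numbered 0 in edgeR's quasi-likelihood test, 4 in its likelihood ratio test, 2 in DESeq2 and 57 of 21388 with no filter on detection, and 0 with any replicate left out. The VLMC and ABC interaction gave 71 genes in the likelihood ratio test, 3 without TMM and 0 to 23 with a replicate left out (23 without pplCoA replicate 2). The VLMC and astrocyte interaction gave 112 in the likelihood ratio test, 13 after Scrublet removal and 0 to 27 with a replicate left out (11 without aplCoA replicate 1, 3 without aplCoA replicate 2, 27 without aplCoA replicate 3). The cause of these changes was not tested. Genes at least 2-fold apart from ABCs numbered 477 and 428, and 521 and 453 after Scrublet removal, chosen as an alternative after seeing the data. Groups numbered 5 at resolution 0.25.

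Replicate numbers did not pair the samples (correlations of same-numbered deviations 0.14, 0.08 and -0.12). With the replicate block, 0 of 6292 genes differed, the share had a limma adjusted p of 0.0555, the log2 ratio an exact p of 0.5 and the median UMI count an exact p of 0.25. Of 456 values of 24 named genes, 453 kept their direction; with nuclei holding other classes' markers left out, Col1a2 went to -0.12 and Pdgfra to 0.085, and Pdgfra ranged from -0.16 to 0.013 with a replicate left out (0.013 without aplCoA replicate 3). Each pplCoA pool gave 128 to 170 VLMC nuclei and 513780 to 718197 of their UMIs, and values of low genes are least precise there.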
